A study of Saccharomyces cerevisiae with 12 samples.

Results

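The genes described here encode 42 transcription regulators of the stress and nutrient responses of budding yeast, Saccharomyces cerevisiae. They were taken by name and are 42 of the 5449 genes that could be named on the arrays, each with 1 probe set. The study measured total RNA from BY4741 wild type and from a gcn5 mutant of the same background on Affymetrix arrays. BY4741 is a haploid laboratory strain of mating type a, and GCN5 encodes the enzyme that acetylates histones within the SAGA and ADA complexes. Exponential cultures in rich glucose medium (YPD) were split, and one part was given the wall-binding dye Congo Red, which attaches to chitin and glucan and disturbs the cell wall, at 30 µg/ml for 3 h. There were thus 4 groups of 3 arrays: untreated wild type, wild type with Congo Red, the untreated gcn5 mutant and the gcn5 mutant with Congo Red. The labels call the mutant gcn5 without giving the allele or the number of clones.

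These proteins sit at the ends of signalling pathways and switch sets of target genes on or off. Msn2, Msn4, Hsf1 and the Yap family respond to stress, Gcn4 and the GATA factors to amino acids and nitrogen, the Mig and Nrg repressors to glucose, the Hap complex to heme and carbon source, and Aft1, Mac1 and Zap1 to metals. Many of them are controlled mainly after transcription, by phosphorylation, by movement into the nucleus, by protein turnover or, for Gcn4, by translation. An mRNA level is therefore only one layer of their control, and it is the one these arrays read.

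GCN5 itself lay between 8.13 and 8.33 log2 on the 6 wild-type arrays and between 3.02 and 4.08 on the 6 mutant arrays, so the arrays bore out the strain labels. The mean log2 level of 7 markers of a cells was 11.08 and 11.02 in wild type without and with Congo Red, against 9.06 and 9.01 in the mutant, and its part in the strain differences was not tested. The 4 alpha-cell markers averaged 5.49 to 5.61 in the 4 groups, with MF(ALPHA)1 under log2 4 on all 12 arrays, and 6 markers of sporulating diploids averaged 5.07 to 5.22. Arrays of equal number deviated together within a strain and between the untreated strains, but not between the treated strains. Regulators shifted one way most often on the 4 arrays numbered 3. There, 23 of the 41 tested regulators were shifted the same way against arrays 1 and 2 in 4 of 4 groups (56.1%, against 30.6% of all genes tested). For the arrays numbered 1 and 2 the shares were 34.1% and 43.9%, against 41.3% and 27.1% of all genes. Changes of several regulators that rest on the arrays numbered 3 are given with and without those arrays below. Counts, medians and changes of target genes were taken over all 12 arrays only. In bulk RNA such as this, fewer cells that express a gene and less RNA per cell cannot be told apart.

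Few of the regulators' own transcripts passed the test. A gene was called when its limma p-value, adjusted by Benjamini-Hochberg over 5345 genes, fell under 0.05. With Congo Red in wild type, 1 of 41 regulators was called, CIN5, which was lower, while 9.24% of all genes were called and 3.91% called lower. In the mutant CIN5 was again the only call and again lower, against 1.16% of all genes called and 0.0748% called lower. No regulator differed between the strains in its Congo Red response in limma's interaction test, where 0 of 41 also had an unadjusted p under 0.05. Among all genes 0.0561% were called in that test and 5.8% had an unadjusted p under 0.05. With the culture as a block 0 of 41 were called there too, against 0.561%. Without Congo Red, 3 regulators were higher in the mutant, GCN4, ROX1 and MIG2, against 9.82% of all genes called in either direction and 4.9% called higher. In Congo Red, GCN4 and IFH1 were higher, against 11% called and 4.57% called higher. Counted in either direction, the shares of regulators called were 2.44%, 2.44%, 0%, 7.32% and 4.88%. They lay below those of all genes, except for Congo Red in the mutant, where 1 gene made up the share. Counted as higher in the mutant, 7.32% and 4.88% stood beside 4.9% and 4.57% of all genes. The all-gene share in the interaction is under 1 gene in 41. With counts this small, the shares do not set the regulators apart from all genes.

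The medians over the 41 genes add to this. The median log2 change with Congo Red was 0.03 in wild type and -0.10 in the mutant, beside -0.02 and -0.03 for all genes. Between the untreated strains the median was 0.24, with 34 of 41 regulators higher in the mutant, beside 0.02 and 52.6% for all genes. Between the treated strains it was 0.09, with 27 of 41 higher, beside 0 and 49.9%. The median of the interaction was -0.14, with 33 of 41 below 0, beside -0.02 for all genes. A list of 78 other transcription factor genes had a median of 0.19 between the untreated strains, with 58 of 78 above 0. Of the 78 genes 8 were called higher and 2 lower, beside 4.9% and 4.92% of all genes. For 37 regulators in wild type and 38 in the mutant the 95% confidence interval of the Congo Red change lay within 2-fold (a log2 change of 1) either way. The untreated arrays serve both the Congo Red and the strain comparisons, so these medians share samples.

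**Figure D1:**
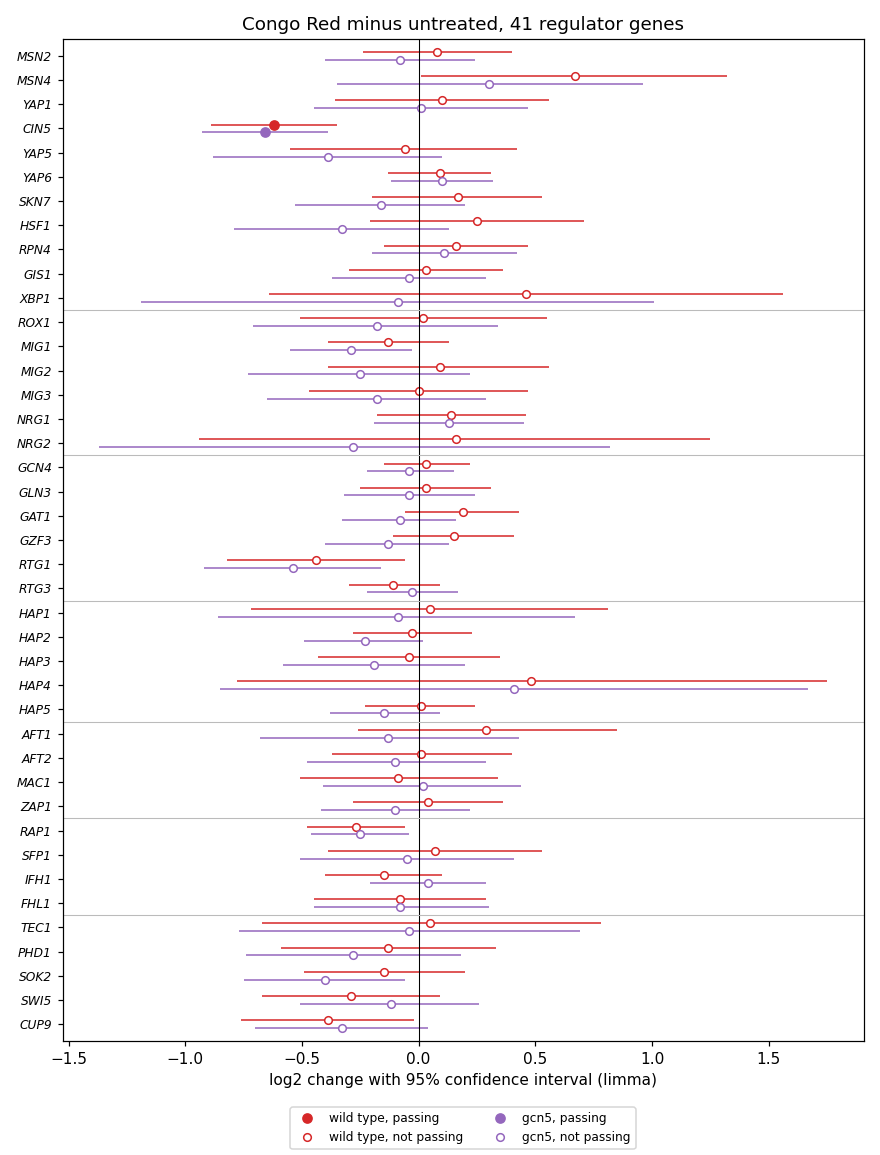
Log2 change with Congo Red (x axis) for the 41 tested regulator genes (y axis) in wild type and in the gcn5 mutant; bars are limma's 95% confidence intervals and filled points passed the adjusted threshold. CIN5 has filled points in both strains, at -0.62 and -0.66, and the open points of the other genes lie between -0.54 and 0.67.

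More regulators, and more of all genes, were called when each treated array was compared with the untreated array of equal number in its strain. As cultures were split, these 2 arrays are taken here as parts of the same culture, which the labels do not state. With the culture as a block, 7 regulators were called in wild type, 3 higher and 4 lower, against 23.8% of all genes called, 12.3% higher and 11.5% lower. In the mutant 2 were called, both lower, against 3.97% called and 1.16% lower. Averaged over both strains, a contrast added after the data were seen, 9 of 41 were called (22%), against 25.2% of all genes. MSN4 and HAP4 rose and CIN5, RTG1, RAP1, PHD1, SOK2, SWI5 and CUP9 fell. The 7 falls were 17.1% of the regulators, beside 13.4% of all genes, and the 2 rises 4.88%, beside 11.8%. Treated arrays lay above the untreated one of their culture in 6 of 6 cultures for 2 regulators and below it for 6, against 11.2% and 13.9% of all genes. The 3 treated wild-type arrays did not overlap the untreated ones for 3 regulators that were higher and 5 that were lower, against 13.8% and 14.8%. In the mutant the counts were 0 and 5, against 5.99% and 7.95%.

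Between the untreated strains more regulators were higher in the mutant than lower. Without Congo Red the groups did not overlap for 13 regulators higher in the mutant (31.7%, against 17.3% of all genes) and 2 lower (4.88%, against 15.1%). With Congo Red the counts were 8 higher and 3 lower, against 14.6% and 14.4%. With the array number as a block, 11 regulators were called between the untreated strains, 10 higher and 1 lower, against 19.2% of all genes called, 9.97% higher and 9.19% lower. The 10 were XBP1, ROX1, MIG2, GCN4, GLN3, GZF3, HAP1, RAP1, PHD1 and CUP9, and TEC1 was the lower one. The fit with this block also holds the treated arrays and counts the parts of a split culture as independent. Its p-values between the strains may therefore be too small. With the same block 19 of the 78 other transcription factor genes were called higher and 5 lower. The share called higher is therefore not shown to be particular to the regulators. Averaged over both conditions 2 were called, GCN4 and ROX1, both higher, against 8.03% called and 3.41% higher.

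Among the general stress regulators CIN5 was the one called with Congo Red. It encodes Yap4, a bZIP factor of the Yap family that is linked to salt tolerance. The 3 untreated wild-type arrays read 7.76, 7.75 and 7.77 log2, and the 3 Congo Red arrays 7.24, 7.09 and 7.08. In the mutant the untreated arrays read 7.88, 7.90 and 7.73, and the treated ones 6.91, 7.45 and 7.16. Every treated array lay below every untreated one, in both strains. The log2 change ± SE was -0.62 ± 0.12 in wild type (1.54-fold lower, adjusted p = 0.0101) and -0.66 ± 0.12 in mutant cells (1.58-fold lower, adjusted p = 0.027). The difference between these changes was -0.04 ± 0.17, with a 95% confidence interval from -0.43 to 0.34. The wild-type call held without any single array and was lost when all 4 arrays of one number were left out (adjusted p = 0.0815 to 0.0994). In the mutant it was lost without untreated wild-type array 2, without untreated mutant array 1, 2 or 3, and without treated mutant array 1 or 3 (adjusted p = 0.0517 to 0.152). It was also lost without all arrays of any number (adjusted p = 0.118 to 0.776) and in a fit of the mutant groups alone (adjusted p = 0.221).

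YAP6 encodes the closest relative of Cin5 among these genes. It ranged from 7.15 to 7.61 over the 12 arrays and changed with the dye by 0.09 ± 0.10 in wild type and, in mutant cells, by 0.10 ± 0.10 (adjusted p = 0.707 and 0.935). The Congo Red change of CIN5 was below that of YAP6 in 6 of 6 cultures, with a mean difference of -0.73 ± 0.25 log2 (SD, n = 6). An exact two-sided sign-flip test gave p = 0.0312, the smallest that 6 cultures allow, and 0.0938 after adjustment over the 6 paralog pairs compared. The pair therefore did not pass after adjustment.

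MSN4, which encodes the partner of Msn2 that is itself induced by stress, read 7.30, 7.46 and 6.36 in untreated wild type and 7.76, 7.87 and 7.48 with Congo Red. In the mutant it read 7.66, 7.63 and 7.07 without and 7.75, 8.21 and 7.32 with Congo Red. The wild-type groups did not overlap, and each treated array was above the untreated one of its culture in 6 of 6 cultures. The change in wild type, 0.67 ± 0.30, was not called (adjusted p = 0.226) and was called with the culture as a block (adjusted p = 0.0117). It was 0.33 without untreated wild-type array 3 and 0.44 without all arrays numbered 3. Over both strains MSN4 rose by 0.49 ± 0.10 (1.40-fold, adjusted p = 0.00961), and by 0.38 without the arrays numbered 3 (adjusted p = 0.0184). MSN2, its constitutive partner, lay between 8.88 and 9.38 and changed by 0.08 ± 0.14 and -0.08 ± 0.14. The change of MSN2 was below that of MSN4 in 6 of 6 cultures, with a mean difference of -0.49 ± 0.32 (SD, n = 6; exact sign-flip p = 0.0312, adjusted 0.0938).

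Known targets of Msn2 and Msn4 were counted beside these genes. In wild type 2 of 20 rose with Congo Red, NTH1, a trehalase gene, by 1.06 ± 0.19 (adjusted p = 0.00597) and HSP12, a membrane-protecting small heat shock protein gene, by 1.31 ± 0.34 (adjusted p = 0.0354). The median of the 20 was 0.36 with 17 of 20 above 0, beside -0.02 for all genes. Of all genes 5.33% were called higher in this comparison. With the culture as a block 8 targets were called higher, beside 12.3% of all genes. In the mutant 0 of 20 were called by limma without a block, 1 had an unadjusted p under 0.05, and the median was 0.03. With the culture as a block 1 was called higher there, HSP12, at 0.84 (adjusted p = 0.0454), against 2.81% of all genes. Averaged over both strains 7 of 20 were called higher, against 11.8% of all genes. The mean level of the 20 on mutant arrays 1, 2 and 3 was 9.51, 9.51 and 9.3 without and 9.4, 9.43 and 9.69 with Congo Red. It was thus lower with the dye on arrays 1 and 2 and higher on array 3. In the interaction 19 of 20 estimates were below 0 with a median of -0.35, and 0 were called (2 with an unadjusted p under 0.05). Without Congo Red 1 target was higher and 1 lower in the mutant. GLK1, a glucokinase gene, was higher by 0.67 ± 0.16 (adjusted p = 0.0248). GPD1, a glycerol synthesis gene of the osmotic response, was lower in the mutant, with a log2 difference of -0.97 ± 0.19 without and -1.38 ± 0.19 with Congo Red (adjusted p = 0.0102 and 0.0013).

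XBP1, a repressor gene induced by stress and in resting cells, had the widest spread of the stress group. It read 5.92, 6.36 and 4.89 in untreated wild type, 6.01, 6.59 and 5.95 with Congo Red, 6.92, 7.40 and 5.83 in the untreated mutant and 6.97, 7.22 and 5.69 in the treated mutant. Array 3 was the lowest of its group in 4 of 4 groups. Between the untreated strains the difference was 0.99 ± 0.50 (1.99-fold, adjusted p = 0.245), and it was called with the number as a block (adjusted p = 0.00945) and without the arrays numbered 3 (1.02, adjusted p = 0.0405). It was 0.58 without untreated wild-type array 3 and 0.65 without untreated mutant array 2. Without the arrays numbered 1 it was not called (adjusted p = 0.567).

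The other general stress regulators were called in none of the 5 comparisons, without or with a block. HSF1, the heat shock factor gene, had the smallest interaction p among the 41: its change was 0.25 ± 0.21 in wild type and -0.33 ± 0.21 in the mutant, a difference of -0.58 ± 0.29 with an interval from -1.22 to 0.07 (adjusted p = 0.921). YAP1, the oxidative stress factor gene, ranged from 8.66 to 9.40, and YAP5, whose product handles iron excess, from 6.90 to 8.06. SKN7, a response regulator gene of oxidative and osmotic stress, ranged from 8.46 to 9.15. RPN4, the activator gene of the proteasome, ranged from 9.89 to 10.41, and GIS1, a factor gene of the diauxic shift, from 9.04 to 9.52. With Congo Red the changes of these 5 genes lay between -0.39 and 0.17, none past the threshold. Of 31 proteasome genes, the known targets of Rpn4, 0 were called with Congo Red in either strain by limma, 0 had an unadjusted p under 0.05, and their medians were 0.04 and 0.01. Of 20 Hsf1 targets, 5 were lower in the mutant without Congo Red and 5 with it, beside 4.92% and 6.4% of all genes. The HSF1 transcript itself was not called. Untreated, the log2 differences were -1.54 ± 0.21 for BTN2, -1.0 ± 0.09 for CUR1 and -0.85 ± 0.12 for HSP82, the Hsp90 gene (adjusted p = 0.00161, 1.6e-04 and 0.00167). BTN2 and CUR1 encode paralogous sorting factors for misfolded protein. Of 15 Yap1 targets, OYE3 alone was called with Congo Red in wild type, higher by 0.77 ± 0.17 (adjusted p = 0.015). The median of the 15 was -0.04, with 6 above 0. ATR1 and GPX2 lay at -0.68 ± 0.21 and -0.68 ± 0.22 and were not called (adjusted p = 0.0696 and 0.0861). With the culture as a block 2 of the 15 were called higher and 2 lower, beside 12.3% and 11.5% of all genes. Averaged over both strains 2 were also called higher and 2 lower, beside 11.8% and 13.4% of all genes. The lower ones over both strains were GPX2 and ATR1 (adjusted p = 5.6e-04 and 0.00403). These counts do not set the Yap1 targets apart from all genes.

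**Figure D2:**
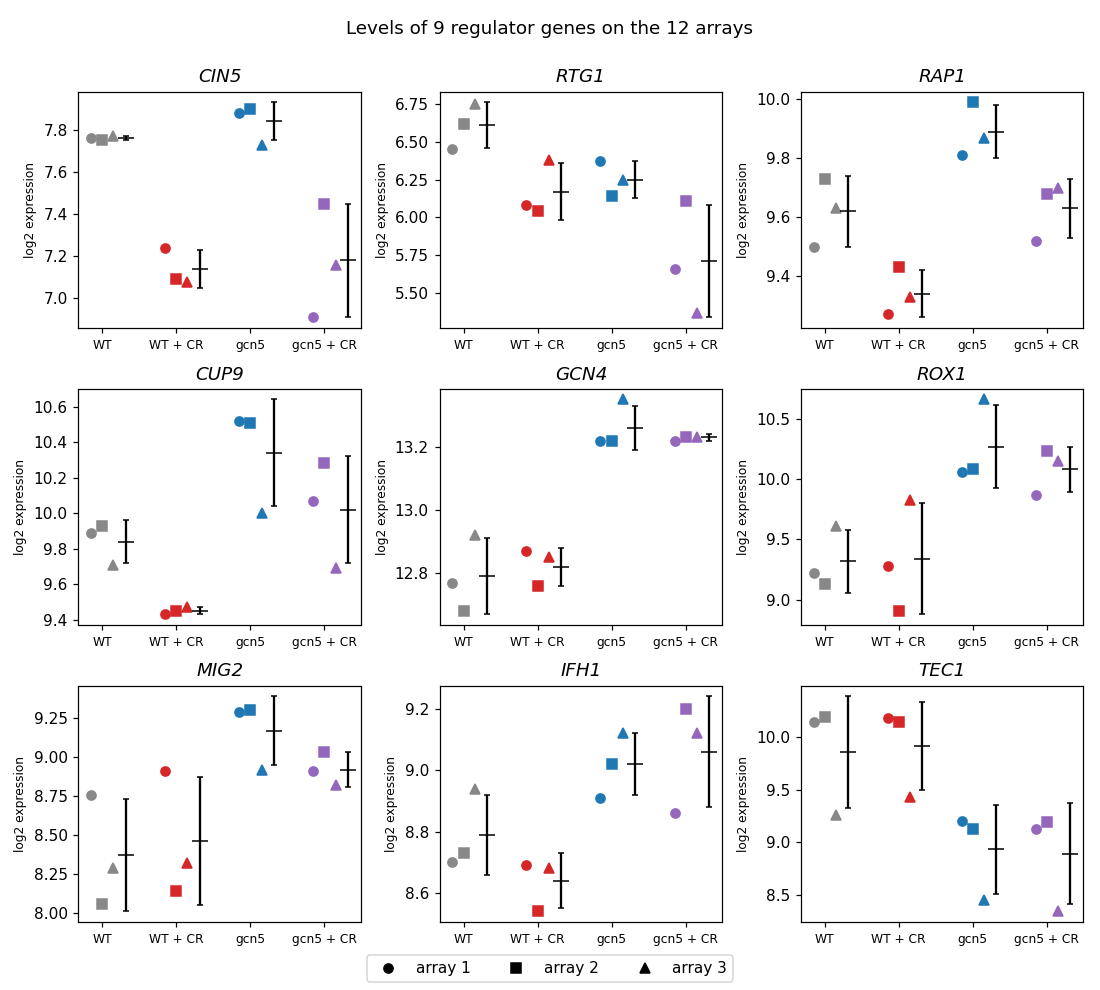
Log2 expression (y axis) of 9 regulator genes on the 12 arrays, by group (x axis; WT is wild type, CR is Congo Red); points are arrays with a marker for each array number, and the bars beside them are group means ± SD (n = 3). CIN5 is lower with Congo Red in both strains, and GCN4 and ROX1 are higher on every mutant array than on every wild-type array.

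The repressors that act with oxygen and glucose included 2 of the 3 genes called between the untreated strains. ROX1 encodes the repressor of hypoxic genes. Its 6 wild-type arrays read 9.22, 9.13 and 9.61 without and 9.28, 8.91 and 9.83 with Congo Red. Its 6 mutant arrays read 10.06, 10.08 and 10.66 without and 9.87, 10.23 and 10.15 with Congo Red. The lowest mutant array lay above the highest wild-type array. Without Congo Red ROX1 was higher in the mutant by 0.95 ± 0.24 (1.93-fold, adjusted p = 0.0317). That call was lost without untreated wild-type array 1 or 2 or untreated mutant array 2 or 3 (adjusted p = 0.0564 to 0.111). It was lost without the 4 arrays numbered 1 or 2 (1.0 and 0.95, adjusted p = 0.239 and 0.192) and held without those numbered 3 (0.90, adjusted p = 0.0122). With Congo Red the difference was 0.75 ± 0.24 and was not called (adjusted p = 0.0709). It was called without treated wild-type array 3 (0.99, adjusted p = 0.0226) or all arrays numbered 3 (0.96, adjusted p = 0.00719), and was 0.46 without those numbered 2. Averaged over both conditions it was 0.85 ± 0.20 (adjusted p = 0.0495), and was lost when arrays were centred on their medians (adjusted p = 0.0509) and without the arrays numbered 1 or 2 (adjusted p = 0.253 and 0.329). Groups of 6 did not overlap for 4 regulators that were higher in the mutant, ROX1, GCN4, GLN3 and RTG3, and for 1 that was lower, TEC1, against 4.71% and 5.46% of all genes.

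Of 6 genes known to be repressed by Rox1, ANB1, the hypoxic form of translation factor eIF5A, was higher in the mutant by 0.59 ± 0.10 without and by 0.90 ± 0.10 with Congo Red (adjusted p = 0.00575 and 4.8e-04). With Congo Red in wild type ANB1 fell by 0.68 ± 0.10 and AAC3, a hypoxic ADP/ATP carrier gene, fell by 0.80 ± 0.16 (adjusted p = 0.00213 and 0.011). The ROX1 transcript changed by 0.02 ± 0.24 in that comparison (adjusted p = 0.983). In the mutant ANB1 and AAC3 changed by -0.37 ± 0.10 and -0.40 ± 0.16 with Congo Red (adjusted p = 0.182 and 0.545). With the culture as a block these adjusted p were 0.0431 and 0.166.

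MIG2 encodes a zinc-finger repressor of glucose-repressed genes and read 8.76, 8.06 and 8.29 in untreated wild type, against 9.29, 9.30 and 8.92 in the untreated mutant. These groups did not overlap, and MIG2 was higher in the mutant by 0.80 ± 0.22 (1.75-fold, adjusted p = 0.0398). The call rested on most of its arrays. It was lost without untreated wild-type array 2 or 3, without untreated mutant array 1, 2 or 3, and without treated mutant array 1 or 2 (adjusted p = 0.0513 to 0.143), and without all arrays numbered 1, 2 or 3 (0.94, 0.58 and 0.89, adjusted p = 0.0747, 0.357 and 0.0906). A fit of the untreated groups alone gave an adjusted p of 0.066. With Congo Red MIG2 read 8.91, 8.14 and 8.32 in wild type, against 8.91, 9.03 and 8.82 in the mutant, which overlap, with a difference of 0.46 ± 0.22 (adjusted p = 0.2). Its relative MIG3 did not overlap between the untreated strains either, with 7.48, 7.12 and 7.47 in wild type, against 7.72, 7.67 and 8.14 in the mutant, but was not called (0.49 ± 0.21, adjusted p = 0.187). MIG1, which encodes the main glucose repressor, ranged from 8.87 to 9.36 and differed by 0.24 ± 0.12 between the untreated strains (adjusted p = 0.229).

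Among 11 genes repressed through the Mig proteins 3 were higher in the untreated mutant and 1 lower, beside 4.9% and 4.92% of all genes. CAT8, an activator gene of growth without glucose, was higher by 1.85 ± 0.16, its partner gene SIP4 by 1.03 ± 0.21 and ICL1, the isocitrate lyase gene, by 0.56 ± 0.15 (adjusted p = 1.1e-04, 0.0108 and 0.0389). CAT8 also rose with Congo Red in wild type, by 0.71 ± 0.16 (adjusted p = 0.019). NRG1 and NRG2 encode a pair of glucose-dependent repressors. NRG1 ranged from 7.81 to 8.45 and changed by 0.14 ± 0.15 and 0.13 ± 0.15 with Congo Red. NRG2 read 10.40 and 10.21 on the mutant arrays numbered 3 and between 8.44 and 9.32 on the other 10 arrays. It was called in no comparison, and its within-group SD in the mutant was 0.92 without and 0.99 with Congo Red (n = 3).

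Of the nitrogen and retrograde regulators GCN4 was the one called between the strains. Gcn4 activates amino acid synthesis genes when amino acids are short. Untreated wild type read 12.77, 12.68 and 12.92 and the untreated mutant 13.22, 13.22 and 13.35. With Congo Red wild type read 12.87, 12.76 and 12.85 and the mutant 13.22, 13.23 and 13.23. No mutant array overlapped a wild-type array. GCN4 was higher in the mutant by 0.47 ± 0.09 without (1.39-fold, adjusted p = 0.00707) and by 0.40 ± 0.09 with Congo Red (1.32-fold, adjusted p = 0.0123), and by 0.44 ± 0.08 over both conditions (adjusted p = 0.0271). The calls without and with Congo Red held when any single array was left out. All 3 calls held without the 4 arrays numbered 3 and were lost without those numbered 1 or 2 (adjusted p = 0.16 to 0.272). The call in Congo Red was also lost in a fit of the treated groups alone (adjusted p = 0.0631). With Congo Red GCN4 changed by 0.03 ± 0.09 in wild type and -0.04 ± 0.09 in the mutant, with 95% confidence intervals within 0.22 of 0.

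Some known targets of Gcn4 differed by far larger folds. Of 17 tested, 5 were higher in the mutant without Congo Red and 5 with it, beside 4.9% and 4.57% of all genes. Their medians were 0.38 and 0.43, beside 0.02 and 0 for all genes. ARG3 and ARG1, arginine synthesis genes, were higher without Congo Red by 3.60 ± 0.36 and 3.61 ± 0.45, and SNZ1, a vitamin B6 synthesis gene, by 1.99 ± 0.24 (adjusted p = 2.2e-04, 9.3e-04 and 7.9e-04). ARG1 and ARG3 also answer to the arginine repressor. With Congo Red 1 of the 17 fell in wild type, the lysine synthesis gene LYS20, by 0.86 ± 0.22 (adjusted p = 0.0302). In the mutant LYS20 changed by -0.51 ± 0.22 (adjusted p = 0.589, and 0.0151 with the culture as a block).

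The GATA factors read nitrogen quality. GLN3, the activator gene, read 7.77, 8.17 and 8.15 in untreated wild type, against 8.25, 8.50 and 8.46 in the untreated mutant. With Congo Red it read 8.01, 8.19 and 7.96 in wild type, against 8.25, 8.37 and 8.46 in the mutant. Every mutant array was above every wild-type array. The untreated difference of 0.37 ± 0.13 was not called (adjusted p = 0.092) and was called with the number as a block (adjusted p = 0.0224). It was 0.24 without untreated wild-type array 1. GZF3, a GATA repressor gene, read 8.11, 8.31 and 8.39 in untreated wild type, against 8.51, 8.64 and 8.68 in the untreated mutant, a difference of 0.35 ± 0.12 (adjusted p = 0.0978, and 0.0159 with the block). GAT1, another activator gene, stayed between 7.94 and 8.28 on all 12 arrays. DAL80, a second repressor gene, lay under log2 4 on all 12 arrays (3.21 to 3.96) and was not tested. Of 17 nitrogen catabolite genes DAL4, the allantoin permease gene, rose with Congo Red in wild type by 1.11 ± 0.19 (adjusted p = 0.00463). In the mutant DAL4 changed by 0.67 ± 0.19 (adjusted p = 0.215, and 0.00731 with the culture as a block). Of the 17 genes 2 were higher and 1 lower in the untreated mutant, beside 4.9% and 4.92% of all genes. PUT4 was higher by 0.92 ± 0.25 and DAL1 by 0.62 ± 0.17, and the ammonium permease gene MEP3 lay at -0.90 ± 0.23 (adjusted p = 0.041, 0.0399 and 0.0312).

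Rtg1 and Rtg3 form the factor of the retrograde response from mitochondria to the nucleus. RTG1 read 6.45, 6.62 and 6.75 in untreated wild type and 6.08, 6.04 and 6.38 with Congo Red. In the mutant it read 6.37, 6.14 and 6.25 without and 5.66, 6.11 and 5.37 with Congo Red. The treated arrays lay below the untreated ones in both strains without overlap. The changes were -0.44 ± 0.17 and -0.54 ± 0.17 and neither was called (adjusted p = 0.157 and 0.321). Over both strains RTG1 fell by 0.49 ± 0.10 (1.41-fold, adjusted p = 0.00884), in 6 of 6 cultures. That call was lost without the 4 arrays numbered 1 (-0.46, adjusted p = 0.0594). RTG3 changed by -0.11 ± 0.09 and -0.03 ± 0.09. CIT1, the mitochondrial citrate synthase gene and a target of this pair, rose in wild type by 0.98 ± 0.26 (adjusted p = 0.0377), and 7 of 7 targets had estimates above 0 there, with a median of 0.22. In the mutant CIT1 changed by 0.80 ± 0.26 (adjusted p = 0.345, and 0.00202 with the culture as a block). Over both strains it rose by 0.89 ± 0.06 (adjusted p = 2.6e-05), and 4 of 7 targets were called higher, against 11.8% of all genes.

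Among the respiration regulators HAP4, which encodes the regulated activation subunit of the Hap2/3/4/5 complex, was the only one called with Congo Red, and only within cultures. Wild type read 9.25, 9.32 and 8.81 without and 9.59, 9.80 and 9.44 with Congo Red. The mutant read 9.49, 9.43 and 7.28 without and 9.64, 9.79 and 8.0 with Congo Red. The wild-type groups did not overlap, and the mutant arrays numbered 3 lay far below the others. The change in wild type was 0.48 ± 0.57 (adjusted p = 0.732), and was called with the culture as a block (adjusted p = 0.014). It was 0.32 without untreated wild-type array 3. Over both strains HAP4 rose by 0.45 ± 0.08 (1.36-fold, adjusted p = 0.00383), in 6 of 6 cultures, and by 0.33 without the arrays numbered 3 (adjusted p = 0.00931). HAP2, HAP3 and HAP5, which encode the DNA-binding subunits, changed by -0.23 to 0.01 and were not called. Of 16 genes activated by the complex 0 were called in any of the 5 comparisons by limma and 0 had an unadjusted p under 0.05, while 14 of 16 had estimates above 0 in each strain with Congo Red, with medians of 0.18 and 0.12. With the culture as a block 6 of them were called higher in wild type and 1 in the mutant, against 12.3% and 2.81% of all genes.

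HAP1 encodes the heme-responsive activator, and in strains of this lineage the gene carries a transposon insertion. It read 10.24, 10.13 and 10.90 in untreated wild type, against 10.68, 10.97 and 11.86 in the untreated mutant. With Congo Red it read 10.42, 10.22 and 10.75 in wild type, against 10.60, 10.90 and 11.73 in the mutant. Array 3 was the highest in 4 of 4 groups, so the groups overlapped. The untreated difference was 0.75 ± 0.35 (adjusted p = 0.212), called with the number as a block (adjusted p = 0.00854) and without the arrays numbered 3 (0.64, adjusted p = 0.0341). It was 0.41 without untreated mutant array 3 alone. Without the arrays numbered 2 it was not called (adjusted p = 0.586).

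**Figure D3:**
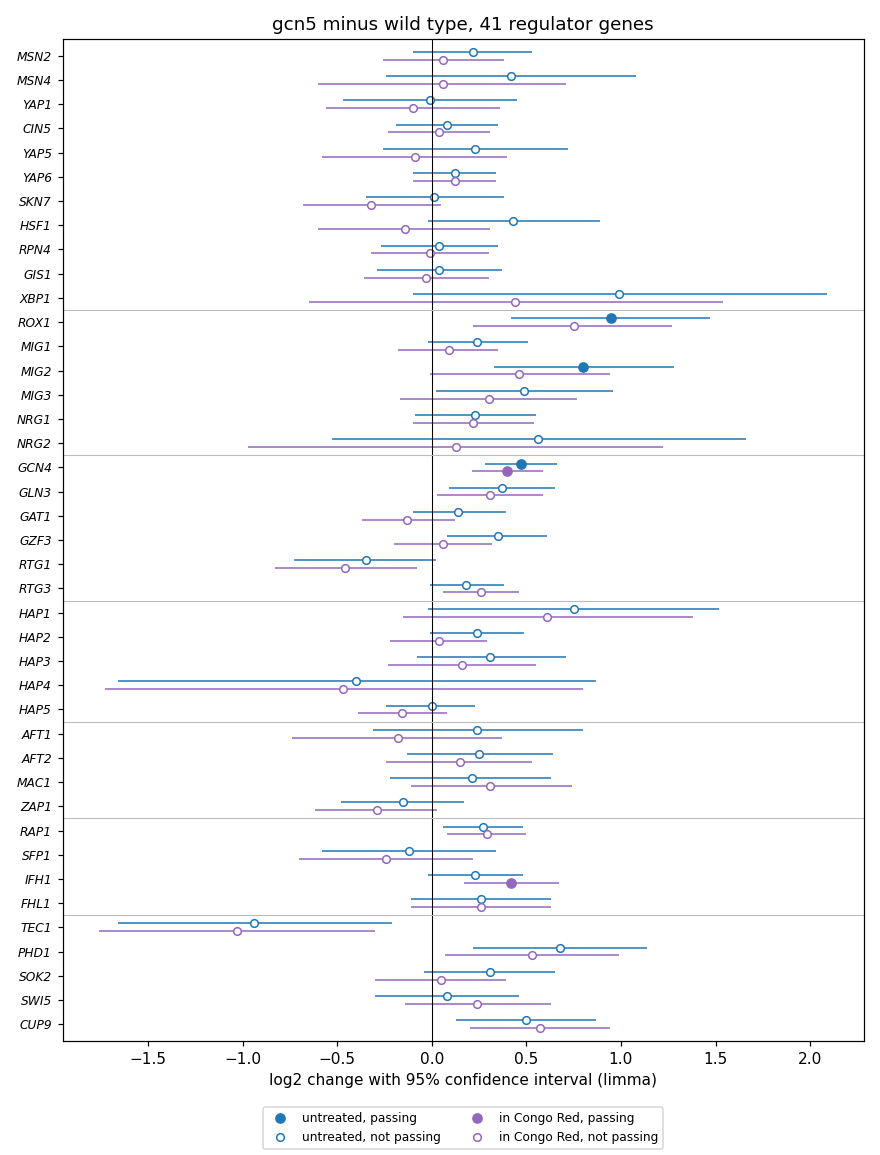
Log2 difference of the gcn5 mutant from wild type (x axis) for the 41 tested regulator genes (y axis), without and with Congo Red; bars are limma's 95% confidence intervals and filled points passed the adjusted threshold. GCN4 is filled in both conditions, at 0.47 and 0.40, and TEC1, at -0.94 and -1.03, has the lowest points but did not pass.

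None of the 4 metal regulators was called in any of the 5 comparisons without a block. AFT1, the activator gene of iron uptake, read 8.60, 8.69 and 9.10 in untreated wild type and 8.83, 8.91 and 9.54 with Congo Red. The mutant read 8.72, 8.91 and 9.49 without and 8.61, 8.88 and 9.24 with Congo Red. Each treated array was above its untreated partner in wild type and below it in the mutant. The change in wild type was 0.29 ± 0.25 (adjusted p = 0.59), called with the culture as a block (adjusted p = 0.0285), and the mutant's was -0.13 ± 0.25. The wild-type value was 0.07 without treated array 3, 0.45 without untreated array 3 and 0.22 without all arrays numbered 3 (adjusted p = 0.354). The difference, -0.42 ± 0.36, was not called without or with the block (adjusted p = 0.999 and 0.144). AFT2, its relative, ranged from 6.50 to 7.14, MAC1, the copper activator gene, from 7.69 to 8.54 and ZAP1, the zinc activator gene, from 6.41 to 7.09.

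Single targets of the metal regulators differed between the strains. Of 3 Mac1 targets, FRE7, a copper-responsive reductase gene, was the only one called between the strains. It was lower in the mutant, at -2.11 ± 0.37 without and -2.2 ± 0.37 with Congo Red (adjusted p = 0.0059 and 0.00358). Of 10 Zap1 targets 2 were higher in the untreated mutant and 1 lower, beside 4.9% and 4.92% of all genes. The high-affinity zinc transporter gene ZRT1 was higher by 0.91 ± 0.26 and ZPS1 by 0.40 ± 0.09 (adjusted p = 0.0454 and 0.0158). The low-affinity transporter gene ZRT2 was lower at -0.53 ± 0.10 (adjusted p = 0.00969). Of 20 Aft1 and Aft2 targets 0 were called in any of the 5 comparisons by limma, and at most 1 had an unadjusted p under 0.05. With the culture as a block 2 were called higher and 3 lower with Congo Red in wild type, against 12.3% and 11.5% of all genes. In the mutant 4 were called lower, against 1.16%. With the number as a block 6 were higher in the untreated mutant, against 9.97%. Averaged over both strains 10 of 20 fell with Congo Red, against 13.4% of all genes. Among them FIT2, a cell wall mannoprotein gene of iron retention, fell by 0.50 ± 0.07 (adjusted p = 0.0016).

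Among the 4 regulators of ribosomal protein genes IFH1 was called between the strains and RAP1 within cultures. RAP1, whose product binds the promoters of most ribosomal protein genes and telomeres, read 9.5, 9.73 and 9.63 in untreated wild type and 9.27, 9.43 and 9.33 with Congo Red. In the mutant it read 9.81, 9.99 and 9.87 without and 9.52, 9.68 and 9.70 with Congo Red. Treated and untreated groups did not overlap in either strain. The changes were -0.27 ± 0.10 and -0.25 ± 0.10 (adjusted p = 0.109 and 0.497), and the wild-type one was called with the culture as a block (adjusted p = 0.022). Over both strains RAP1 fell by 0.26 ± 0.05 (1.20-fold, adjusted p = 0.00513). That call was lost without the 4 arrays numbered 1 or 2 (adjusted p = 0.071 and 0.0778). RAP1 was also 0.27 ± 0.10 higher in the untreated mutant, which was not called (adjusted p = 0.104) and was called with the number as a block or with array weights (adjusted p = 0.0227 and 0.0186).

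IFH1 encodes the coactivator that Fhl1 recruits to ribosomal protein promoters. With Congo Red it read 8.69, 8.54 and 8.68 in wild type, against 8.86, 9.20 and 9.12 in the mutant, without overlap. It was higher in the mutant by 0.42 ± 0.11 (1.34-fold, adjusted p = 0.036). The call was lost without any 1 of 7 single arrays: untreated wild-type array 2, treated wild-type array 1, 2 or 3, untreated mutant array 2 and treated mutant array 2 or 3 (adjusted p = 0.0516 to 0.117). It was also lost without all arrays numbered 1, 2 or 3 (0.55, 0.30 and 0.41, adjusted p = 0.117, 0.365 and 0.0761) and in a fit of the treated groups alone (adjusted p = 0.113). Untreated, IFH1 read 8.70, 8.73 and 8.94 in wild type, against 8.91, 9.02 and 9.12 in the mutant, which overlap (0.23 ± 0.11, adjusted p = 0.233). FHL1 ranged from 7.39 to 8.09 and SFP1, a growth regulator gene, from 8.75 to 9.69. Of 122 ribosomal protein genes 1 was called with Congo Red in wild type, RPL27B, at -0.28 ± 0.08 (adjusted p = 0.049), and their medians lay between -0.07 and -0.04 in the 4 pairwise comparisons. Many ribosomal protein genes are near-identical pairs, so their probe sets may share signal.

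The last group acts in morphogenesis, the cell cycle and peptide uptake. TEC1 encodes the partner of Ste12 for filamentous growth genes and a target of the Kss1 pathway. It read 10.15, 10.19 and 9.26 in untreated wild type, against 9.20, 9.13 and 8.45 in the untreated mutant. With Congo Red it read 10.18, 10.15 and 9.43 in wild type, against 9.13, 9.19 and 8.34 in the mutant. The highest mutant array lay below the lowest wild-type array, and array 3 was the lowest of each group. The differences of -0.94 ± 0.33 (1.91-fold lower) and -1.03 ± 0.33 (2.04-fold lower) were not called (adjusted p = 0.104 and 0.0708). Without the 4 arrays numbered 3 they were -1.0 and -1.0 and both were called (adjusted p = 5.3e-04 and 3.8e-04), and with the number as a block the untreated one was called (adjusted p = 7.7e-05). Leaving out untreated wild-type array 3 also gave both calls (adjusted p = 0.0457 and 0.0465), as did treated wild-type array 3 for the treated strains (adjusted p = 0.0496). The untreated difference was not called without the arrays numbered 2 (adjusted p = 0.44), nor the treated one without those numbered 1 (adjusted p = 0.315). KSS1, the MAP kinase gene of the Kss1 pathway, rose with Congo Red in wild type by 0.55 ± 0.10 (adjusted p = 0.00507) and was lower in the mutant at -0.39 ± 0.10 without and -0.58 ± 0.10 with Congo Red (adjusted p = 0.0269 and 0.00342). Within the mutant KSS1 changed by 0.37 ± 0.10 with Congo Red (adjusted p = 0.148), and over both strains by 0.46 ± 0.06 (adjusted p = 9.4e-04). TEC1 changed by 0.05 ± 0.33 and -0.04 ± 0.33 with Congo Red.

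PHD1 and SOK2 encode related factors that promote and restrain filamentous growth. PHD1 read 9.95, 9.80 and 10.31 in untreated wild type, 9.92, 9.68 and 10.05 with Congo Red, 10.53, 10.54 and 11.02 in the untreated mutant and 10.09, 10.33 and 10.83 in the treated mutant. The untreated strains did not overlap. The difference of 0.68 ± 0.21 (1.60-fold) had an adjusted p of 0.0672, or 0.00335 with the number as a block, 0.0173 without the arrays numbered 3 and 0.0358 without treated mutant array 3. Without the arrays numbered 2 the adjusted p was 0.359. SOK2 read 9.17, 9.32 and 9.58 in the untreated mutant and 8.79, 9.02 and 9.05 with Congo Red, without overlap, a change of -0.40 ± 0.16 (adjusted p = 0.518, and 0.0207 with the culture as a block). Over both strains SOK2 fell by 0.28 ± 0.05 and PHD1 by 0.21 ± 0.06 (adjusted p = 0.00643 and 0.0319). The SOK2 call was lost without the arrays numbered 1 (adjusted p = 0.057), and the PHD1 call without the arrays of any number (adjusted p = 0.0589 to 0.172).

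CUP9, a repressor gene that keeps the peptide transporter gene PTR2 off, read 9.89, 9.93 and 9.71 in untreated wild type and 9.43, 9.45 and 9.47 with Congo Red. The mutant read 10.52, 10.51 and 10 without and 10.07, 10.28 and 9.69 with Congo Red. It was lower with Congo Red in 6 of 6 cultures, and untreated mutant arrays lay above untreated wild-type arrays. Over both strains it fell by 0.36 ± 0.06 (1.28-fold, adjusted p = 0.00269), which was lost without the arrays numbered 1 (-0.31, adjusted p = 0.0518). Within wild type the change was -0.39 ± 0.17 (adjusted p = 0.201, and 0.0095 with the culture as a block). Between the untreated strains the difference was 0.50 ± 0.17 and in Congo Red 0.57 ± 0.17 (adjusted p = 0.0873 and 0.0544). Without the arrays numbered 3 both were called, at 0.61 and 0.74 (adjusted p = 0.00911 and 0.00299), and both were called without untreated mutant array 3 alone (adjusted p = 0.0336 and 0.0258) or treated mutant array 3 alone (adjusted p = 0.0457 and 0.0185). Neither was called without the arrays numbered 1 (adjusted p = 0.441 and 0.348). PTR2 differed by -0.60 ± 0.30 in the untreated mutant (adjusted p = 0.241, and 0.0127 with the number as a block).

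SWI5, an activator gene of late mitosis and early G1, read 8.76, 9.17 and 9.07 in untreated wild type and 8.63, 8.86 and 8.64 with Congo Red, a change of -0.29 ± 0.17 (adjusted p = 0.394, and 0.0373 with the culture as a block). Over both strains it fell by 0.21 ± 0.06 (adjusted p = 0.0346), which was lost without the arrays of any number (adjusted p = 0.0636 to 0.195). Between the untreated strains it differed by 0.08 ± 0.17 (adjusted p = 0.816).

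**Figure D4:**
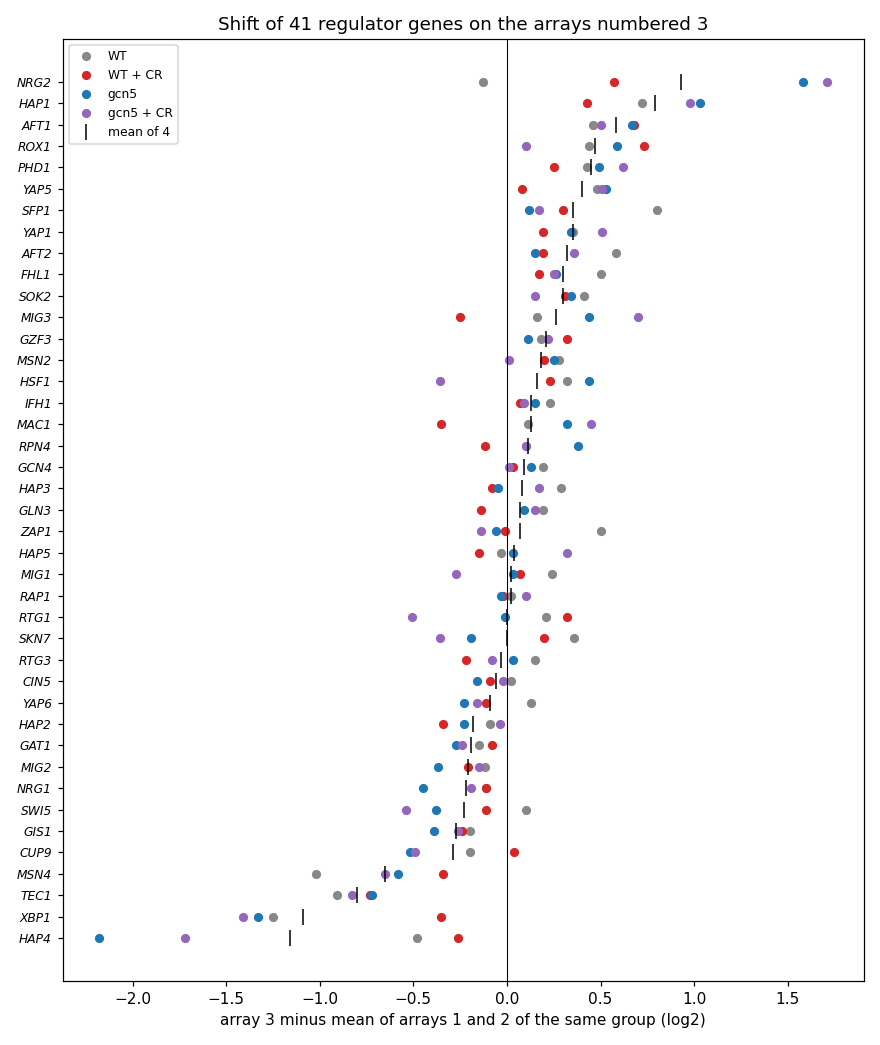
Shift of array 3 against the mean of arrays 1 and 2 of its group (x axis, log2) for the 41 tested regulator genes (y axis), with a point per group and a line at the mean of the 4 groups (WT is wild type, CR is Congo Red). HAP4, XBP1 and TEC1 have the lowest means, at -1.16, -1.09 and -0.80, and HAP1 and AFT1 are higher on array 3 in all 4 groups.

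The array number accounted for more of the variation of most regulators than the treatment did. Of strain, Congo Red and number, the number accounted for the largest share of the variance in 21 of 41 regulators (51.2%, against 40.2% of all genes). Strain did so in 17 (41.5%, against 37.4%) and Congo Red in 3 (7.32%, against 22.4%). The number has 2 degrees of freedom, against 1 each for strain and Congo Red. It thus takes a larger share even from noise, in the regulators and in all genes. On the arrays numbered 3, 14 regulators were higher in 4 of 4 groups and 9 lower, against 15.1% and 15.5% of all genes. For the arrays numbered 1 and 2 the regulators that shifted one way in 4 of 4 groups were 14 and 18, against 41.3% and 27.1% of all genes. The number came from the labels, which do not say whether it marks a day or a batch.

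Known targets of the Hap complex and of Aft1 shifted the same way as HAP4 and AFT1. HAP4 shifted by -0.48, -0.26, -2.18 and -1.72 in untreated and treated wild type and the untreated and treated mutant. The 16 tested genes activated by the Hap complex were lower on array 3 in 4 of 4 groups in 16 of 16 cases, with a median shift of -1.01 beside 0.01 for all genes. Their mean level was 10.16, 10.39 and 9.73 in untreated wild type, against 10.27, 10.35 and 8.71 in the untreated mutant. AFT1 shifted by 0.46, 0.68, 0.67 and 0.50 in the same order. The 20 Aft1 and Aft2 targets were higher on array 3 in 4 of 4 groups in 20 of 20 cases, with a median shift of 1.34. Their mean was 9.74, 9.78 and 10.79 in untreated wild type, against 9.64, 9.84 and 11.54 in the untreated mutant. Both target sets thus split the arrays by number in each group, with the mutant arrays numbered 3 at the extremes. The median shift was -0.32 for Msn2 and Msn4 targets, with 6 of 20 lower in 4 of 4 groups, and -0.27 for Gcn4 targets, with 8 of 17 lower. What the number stands for, and its part in these shifts, was not tested.

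**Figure D5:**
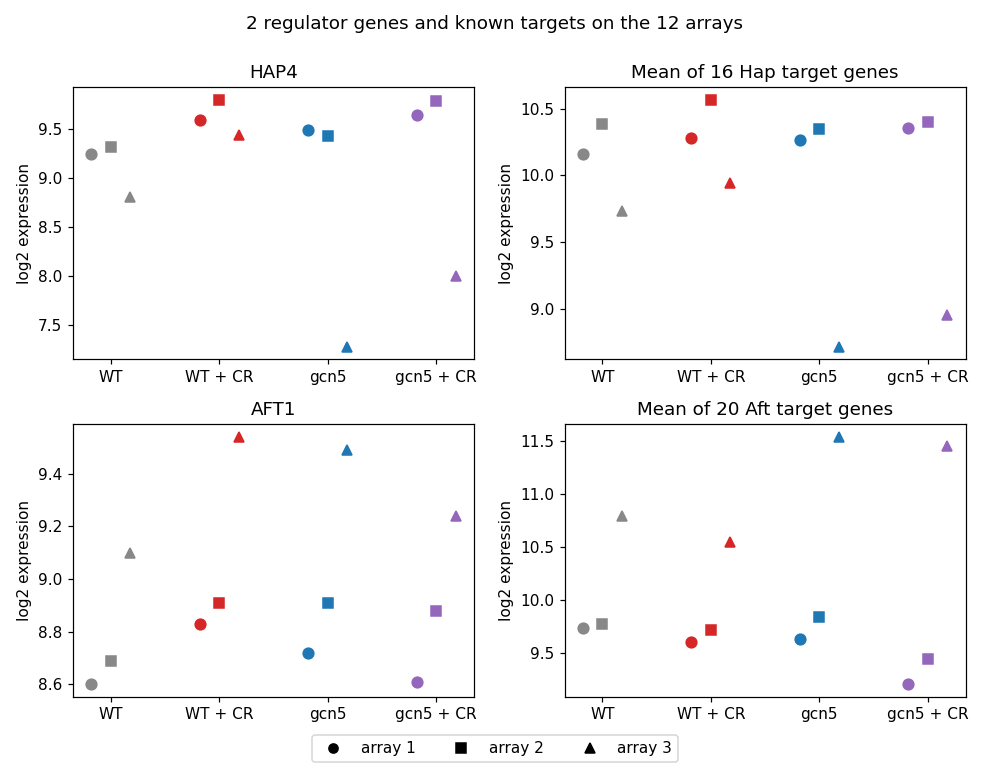
Log2 expression (y axes) of HAP4 and AFT1 and the mean over 16 Hap target genes and 20 Aft target genes on the 12 arrays, by group (x axis; WT is wild type, CR is Congo Red), with a marker for each array number. Array 3 is the lowest of its group in the HAP4 and Hap target panels and the highest in the AFT1 and Aft target panels.

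Other transcription factor genes were counted for comparison. Of the 78 tested, 6 rose and 1 fell with Congo Red in wild type, a share near the 9.24% of all genes called, led by RLM1, the factor gene of the cell integrity pathway, at 1.22 ± 0.12, STP2 at 0.94 ± 0.11 and COM2 at 0.87 ± 0.12 (adjusted p = 1.3e-04, 5.1e-04 and 0.00152). In the mutant only RLM1 of that list was called, at 0.60 ± 0.12 (adjusted p = 0.0402). STP2 and COM2 changed by 0.47 ± 0.11 and 0.39 ± 0.12 there, called only with the culture as a block (adjusted p = 0.0151 and 0.0343). Of 49 upstream signalling and partner genes, KSS1 was the one called in wild type, and in the mutant 0 were called by limma (3 with an unadjusted p under 0.05). HOG1, the osmotic stress MAP kinase gene, was lower in the mutant at -0.54 ± 0.12 without and -0.69 ± 0.12 with Congo Red (adjusted p = 0.0206 and 0.00534).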

How the data were processed

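The authors deposited a log2 value for each probe set. GCRMA is the tool named for it in the submitters' processing notes, with no version. GCRMA normalizes by quantiles, so a shift of all transcripts one way would not be seen. Values ran from 2.45 to 14.34 and array medians from 8.98 to 9.05. Of 5716 probe sets, 5498 had 1 gene symbol, 0 several and 218 none in the platform annotation, and 12 symbols were updated through the RefSeq gene table. The 5345 of 5449 genes above log2 4 on at least 3 of 12 arrays were tested, 41 of the 42 regulators among them. With arrays, their number limits the precision.

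A linear model of the 4 groups, with 8 residual degrees of freedom, was fitted to all 12 arrays with limma 3.58.1 (R 4.3.3), followed by eBayes and Benjamini-Hochberg adjustment over all tested genes, for 5 contrasts, checked on simulated data. Errors are limma's standard errors unless SD is named. Arrays of equal number deviated together, except between the treated strains: their deviations from the group mean correlated at 0.53, 0.74 and 0.67 between the parts of the wild-type cultures, 0.84, 0.57 and 0.79 in the mutant and 0.53, 0.39 and 0.44 between the untreated strains. Within a strain, arrays of equal number were therefore taken as parts of a split culture, which the labels do not state. This culture was the block for Congo Red, and the number was the block for the untreated strains. The number block was fitted to all 12 arrays, the treated ones included. For the strains within a condition, this fit and the fit without a block count the parts of a split culture as independent. As those parts deviated together, the residual degrees of freedom overstate the independent cultures, and these p-values may be too small. Between the treated strains the correlations were 0.33, -0.08 and 0.11, so no block is used there. The contrasts averaged over strains or conditions, the omission of all 4 arrays of a number and the description by number were added after the data were seen.

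The regulators and the 18 gene lists were chosen with earlier results of these data known. All regulators could be named, and from each list up to 3 genes with the smallest p in a contrast. Alternatives varied the block, the filter, scaling, floor, variance prior, probe sets, array weights, the arrays fitted and each array. Some listed genes and 1 list are not reported here. Promoter and protein sequences were not used here. No coordinates are given, since no genome build was used.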

Additional observations from a re-analysis of the deposited data

Results flagged for a closer look

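For 3 regulators every culture of one strain moved one way with Congo Red and every culture of the other strain the opposite way. How many of all genes did so was not counted, so this is not shown to be particular to the regulators. None of the 3 strain differences in Congo Red change passed limma's interaction test. The adjusted p there was 0.999 for MIG2 and AFT1 and 0.983 for GAT1. The Congo Red change of MIG2 in the mutant was lower than in wild type by a log2 difference of -0.34 (SE 0.31), that of GAT1 by -0.27 (SE 0.16) and that of AFT1 by -0.42 (SE 0.36). For GAT1 and AFT1 the strain difference also turned sign between the conditions on arrays of equal number, by the same -0.27 and -0.42. The numbers do not pair the treated strains, so only the Congo Red changes are within cultures.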

How the results depend on the processing

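Alternatives were run for regulator changes called without or with a block, not for target genes, interaction estimates or the other regulators. No change so tested reversed its direction: 636 values kept their side of the threshold, 53 gained it and 62 lost it. Called regulators in the 5 comparisons (the dye in wild type, the dye in mutant cells, interaction, untreated strains, treated strains) numbered 1, 1, 0, 3 and 2. With the replicate block they numbered 7, 2, 0, 11 and 9, and over all genes 1272, 212, 30, 1024 and 1048 in place of 494, 62, 3, 525 and 586. The numbers do not pair the treated strains, so the 9 there is given only here. With array weights the counts were 4 in wild type, 11 between the untreated and 7 between the treated strains. A fit of only the groups compared gave 0 in the mutant and 0 between the treated strains. The mean strain effect called 2, or 1 with centred arrays. Leaving out single arrays or all arrays of a number gave 0 to 1, 0 to 1, 0 to 0, 0 to 7 and 0 to 4, 3 to 7 (in place of 9) for the mean Congo Red effect and 0 to 6 for the mean strain effect. The all-gene counts then ranged over 61 to 572, 2 to 74, 0 to 13, 38 to 615 and 45 to 799. The cause of these moves was not tested. Filters, floor, probe-set choice and the variance prior left every count of regulators within 1.5 times, and the all-gene counts too, except 6 in place of 3 for the interaction under the variance prior. Fits without a number hold fewer arrays.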
